A study of Mus musculus with 12 samples.

Results

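The genes described here are the phosphoinositide enzyme genes Pi4ka, Pi4kb, Pi4k2a, Pi4k2b, Pikfyve, Pip4k2a, Pip4k2b, Pip5k1a, Pip5k1c and Tmem55b, taken by gene symbol, which are 10 of the 24562 genes counted. Of these, 9 encode lipid kinases that act on phosphatidylinositol or its phosphates, and the other, Tmem55b, encodes a lipid phosphatase that removes the 4-phosphate of PI(4,5)P2, so the name lipid kinases fits 9 of the 10. The genes were selected on their expression in these pools, with the difference between meiotically competent and non-competent oocytes already known, and that difference is therefore given as a description, with no p-value for these genes. All 10 passed the filter on low counts, and the lowest count of any of them in any pool was 52, for Pi4k2b.

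RNA-Seq was performed on 12 pools of 18 to 45 oocytes from CD-1 mice, an outbred strain, that had received no gonadotropins, with 3 pools in each of 4 cohorts. The cohorts were PND 13 (postnatal day 13), PND 16 small and PND 16 large, which are mice of the same age divided by body weight, and PND 40. The study treats oocytes of PND 13 and PND 16 small as broadly lacking meiotic competence, the ability to mature to metaphase II, and those of PND 16 large and PND 40 as having it; the sequenced oocytes themselves were at the germinal vesicle stage. The pools of a cohort came from 3 mice, and p-values measure the spread between these pools. Each pool mixed oocytes of many follicles, and levels are relative to the counts of the pool, not amounts per oocyte. A lower level can reflect fewer oocytes that express a gene, less of its RNA in each oocyte, or more RNA of other genes. These cannot be told apart.

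Phosphatidylinositol (PI) is a membrane lipid whose inositol ring carries phosphates at different positions, and each phosphorylated form marks particular membranes. PI 4-kinases make PI4P at the Golgi, endosomes and plasma membrane, and PI4P 5-kinases (PIP5K) convert it to PI(4,5)P2, which phospholipase C cleaves during the calcium response at fertilization and which PI 3-kinases convert to PIP3 in the signalling that drives oocyte growth and follicle activation. PIKfyve makes PI(3,5)P2 on late endosomes and lysosomes, and PI5P 4-kinases (PIP4K) use PI5P to make PI(4,5)P2 on internal membranes.

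The total count per pool was between 17671193 and 27418358. All 10 oocyte markers examined, among them Zp3 and Gdf9, were detected in every pool, with summed levels between 14500 and 18900 CPM (counts scaled to the library total), in keeping with the sample label. Erythrocyte genes were at or near 0, with no count of Hbb-bs in any pool. Granulosa and cumulus cell markers were present and uneven between pools, and their values stand beside the results below. Precision is given throughout by the spread between pools.

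Promoter sequence was found in RefSeq for 9 of the 10 genes (all but Pip4k2b), as 10 windows of 300 bases around annotated starts in GRCm38.p6. The 200 bases before the start are printed for Pi4k2a and Pip4k2a, the 2 genes with the largest differences with competence, for the phosphatase gene Tmem55b, and for Pip5k1c, whose level was nearly the same in every cohort. Capitals mark a GC box (GGGCGG, or CCGCCC where it lies on the other strand) or an E-box (CACGTG). The windows are chr19:42090235-42090434 (plus strand) for Pi4k2a, chr2:18998122-18998321 (minus strand) for Pip4k2a, chr14:50930850-50931049 (minus strand) for Tmem55b and chr10:81292763-81292962 (plus strand) for Pip5k1c.
Pi4k2a: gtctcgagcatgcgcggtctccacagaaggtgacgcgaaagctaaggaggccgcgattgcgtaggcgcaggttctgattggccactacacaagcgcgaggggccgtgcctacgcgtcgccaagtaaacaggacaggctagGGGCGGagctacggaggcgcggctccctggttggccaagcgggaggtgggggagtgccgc
Pip4k2a: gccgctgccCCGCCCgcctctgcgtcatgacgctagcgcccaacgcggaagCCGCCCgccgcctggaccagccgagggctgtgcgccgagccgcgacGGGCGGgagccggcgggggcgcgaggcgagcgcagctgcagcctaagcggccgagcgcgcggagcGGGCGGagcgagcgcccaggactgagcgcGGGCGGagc
Tmem55b: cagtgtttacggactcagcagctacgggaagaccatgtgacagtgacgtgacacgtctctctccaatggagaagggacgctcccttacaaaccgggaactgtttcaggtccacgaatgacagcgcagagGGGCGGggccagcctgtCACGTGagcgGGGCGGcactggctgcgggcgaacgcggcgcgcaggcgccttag
Pip5k1c: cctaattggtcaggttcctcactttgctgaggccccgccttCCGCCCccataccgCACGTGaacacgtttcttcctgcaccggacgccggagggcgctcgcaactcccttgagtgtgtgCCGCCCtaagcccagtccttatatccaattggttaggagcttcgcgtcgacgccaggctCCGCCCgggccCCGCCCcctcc
Over the full windows of 300 bases, in which overlapping matches on both strands were counted, the GC box occurred 8 times in Pip4k2a, 5 times in Pip5k1c, 3 times each in Tmem55b and Pi4k2b, and 2 times each in Pi4k2a, Pi4kb and Pikfyve. It was not found for Pip5k1a, and it was found once in 1 of the 2 windows of Pi4ka. For comparison, 35.7% of the 32851 promoter windows in the RefSeq table held at least 1 GC box and 7.15% held an E-box. The median GC content of those windows was 52.7%. The 10 windows of these genes had 44.7% to 79.7%, most of them above that median. The E-box was found in Tmem55b, Pip5k1c and Pip5k1a. The GC box, the binding sequence of Sp1-family factors, thus occurred both in promoters of genes that differed with competence and in that of Pip5k1c, which did not.

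In competent compared with non-competent oocytes, 6 of the 10 genes were lower by the study's criteria (a change of 1.5-fold or more, with the adjusted p not above 0.05) and none was higher, where 15.0% of the 13943 genes tested were called in either direction and 11.2% were called lower. The 6 were Pip4k2a, Pi4k2a, Pi4kb, Pi4k2b, Tmem55b and Pikfyve, and for each of them every one of the 6 competent pools was below every one of the 6 non-competent pools, as was so for 7.81% of all genes tested. Pip5k1a would join them without the fold criterion, under which 16.5% of all genes were called lower. Because the genes were chosen with this difference known, these counts describe the group and carry no test. The median log2 fold change was -0.66 over the 10 genes and -0.0046 over all genes tested. Together the 10 genes took 0.0571% to 0.0745% of the counts in the non-competent pools and 0.0473% to 0.0516% in the competent pools. Expression below is in CPM after TMM scaling (trimmed mean of M-values), and a cohort is given as mean ± SD of n = 3 pools.

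**Figure D1:**
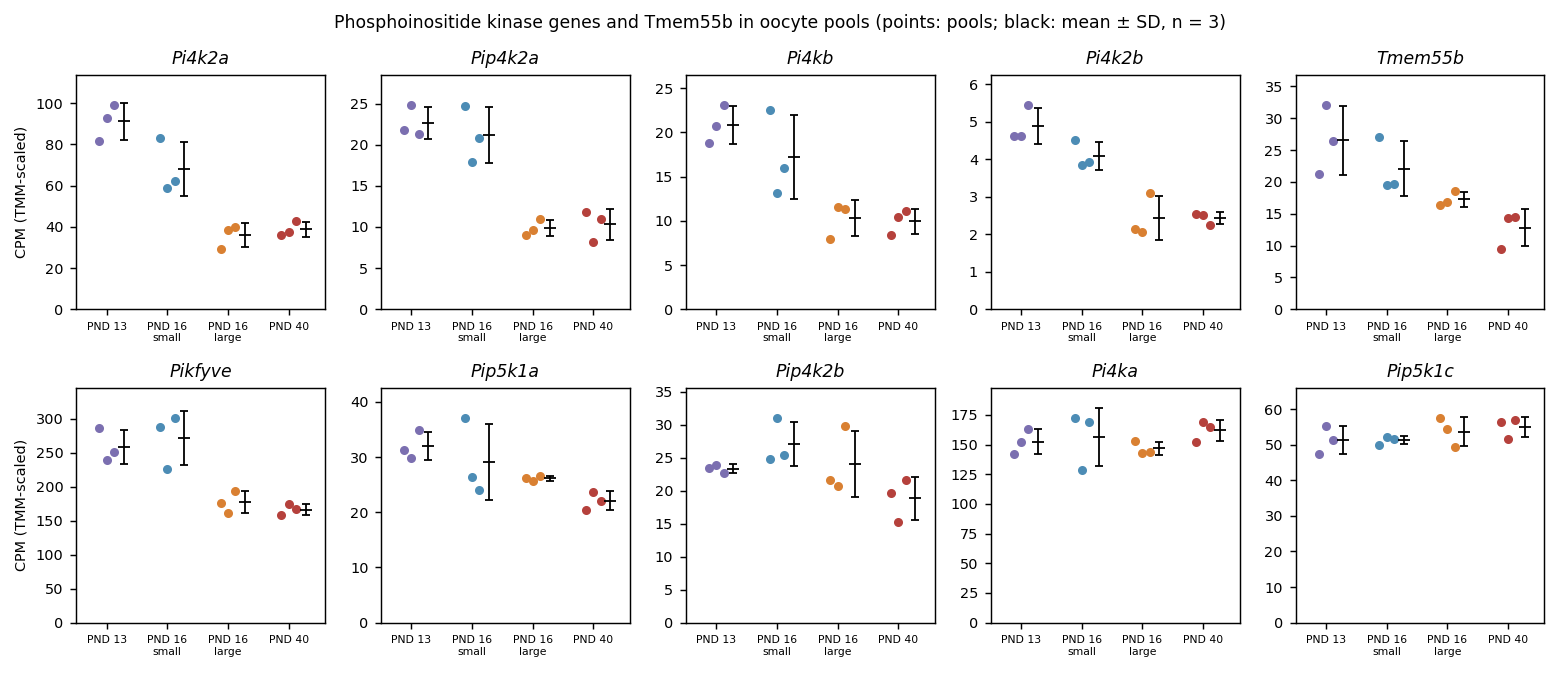
Expression of the 10 genes (vertical axis, TMM-scaled CPM, from 0) in each of the 12 oocyte pools, by cohort (horizontal axis). Points are pools and the black marks give mean ± SD (n = 3). In the upper row and for Pikfyve all competent pools (PND 16 large, PND 40) lie below all non-competent pools, whereas Pi4ka and Pip5k1c overlap in all cohorts.

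Among the PI 4-kinases, 3 of 4 were lower in competent oocytes. Pi4k2a (chr19:42090470-42122087, GENCODE M21 on GRCm38), a palmitoylated type II PI 4-kinase of endosomes and the trans-Golgi network, stood at 81.6, 93.0 and 99.1 CPM in the pools of PND 13 and at 83.2, 59.0 and 62.1 CPM in PND 16 small. In PND 16 large it stood at 29.4, 38.6 and 40.0 CPM, and at PND 40 at 36.0, 37.5 and 43.1 CPM. The lowest non-competent pool was thus well above the highest competent pool, and replicate 1 of PND 16 small sat with the PND 13 pools. The level in competent oocytes was 2.13-fold lower (log2 fold change -1.09, SE 0.131).

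Pi4kb (chr3:94974731-95006843), the type III kinase recruited to the Golgi by ACBD3, had 18.8, 20.7 and 23.1 CPM at PND 13 and 22.5, 13.2 and 16.0 CPM in PND 16 small. It had 7.93, 11.6 and 11.3 CPM in PND 16 large and 8.36, 10.4 and 11.1 CPM at PND 40. The groups did not overlap, but the gap between the lowest non-competent pool and the highest competent pool was narrow, and the log2 fold change was -0.91 (SE 0.154). Its exons overlap, on the opposite strand, those of Gm15265 over 10.5% of their length, Zfp687 over 6.55% and A730011C13Rik over 6.03%, and whether the counting used strand is not given in the sources used here.

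Pi4k2b (chr5:52741574-52769340), the other type II kinase, was the least abundant of the 10 genes, with 4.63, 4.61 and 5.44 CPM at PND 13, 4.52, 3.84 and 3.91 CPM in PND 16 small, 2.13, 2.05 and 3.10 CPM in PND 16 large and 2.53, 2.51 and 2.24 CPM at PND 40. The difference between the groups was 1.85-fold (log2 fold change -0.89, SE 0.180). These levels rest on 52 to 133 counts a pool.

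Pi4ka (chr16:17280351-17406314), the type III kinase that supplies plasma membrane PI4P in a complex with TTC7 and EFR3 proteins, stood apart from the other 3. It had 142, 152 and 163 CPM at PND 13, 172, 128 and 169 CPM in PND 16 small, 153, 143 and 144 CPM in PND 16 large and 152, 169 and 165 CPM at PND 40. The cohorts overlapped throughout, with means of 155 ± 16.9 CPM in non-competent and 155 ± 10.6 CPM in competent oocytes (SD, n = 6) and a log2 fold change of 0.000045 (SE 0.0768).

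Pikfyve (chr1:65186683-65278695), the kinase that phosphorylates PI3P to PI(3,5)P2, had the highest CPM of the 10 genes, which also reflects its long transcript. It was counted at 285, 238 and 250 CPM at PND 13 and at 288, 226 and 300 CPM in PND 16 small, against 175, 161 and 194 CPM in PND 16 large and 158, 174 and 166 CPM at PND 40. No competent pool reached the lowest non-competent pool. The difference was 1.54-fold (log2 fold change -0.63, SE 0.0787), close to the 1.5-fold criterion.

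The PI5P 4-kinases were unalike. Pip4k2a (chr2:18842255-18998126) had 21.8, 24.8 and 21.2 CPM at PND 13 and 24.7, 17.9 and 20.8 CPM in PND 16 small, and 9.08, 9.62 and 11.0 CPM in PND 16 large and 11.8, 8.20 and 11.0 CPM at PND 40. Its difference was the largest of the 10 genes, 2.16-fold lower in competent oocytes (log2 fold change -1.11, SE 0.120), with no overlap. Pip4k2b (chr11:97715157-97744704) had 23.4, 23.9 and 22.7 CPM at PND 13, 24.9, 30.9 and 25.4 CPM in PND 16 small, 21.6, 20.7 and 29.8 CPM in PND 16 large and 19.6, 15.2 and 21.7 CPM at PND 40. Its groups overlapped and the log2 fold change was -0.23 (SE 0.137). The third paralog, Pip4k2c, which was not among the 10 genes and whose product has very low catalytic activity, had 66.6 ± 3.81 CPM in non-competent and 63.7 ± 11.3 CPM in competent oocytes (SD, n = 6).

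Tmem55b (listed by RefSeq as Pip4p1; chr14:50926068-50930856), whose product removes a phosphate from PI(4,5)P2 to give PI5P at lysosomes, had 21.2, 32.1 and 26.4 CPM at PND 13, 27.1, 19.5 and 19.7 CPM in PND 16 small, 16.3, 16.9 and 18.5 CPM in PND 16 large and 9.48, 14.4 and 14.5 CPM at PND 40. It was 1.62-fold lower in competent oocytes (log2 fold change -0.70, SE 0.164), and the highest competent pool, at 18.5 CPM, lay just under the lowest non-competent pool, at 19.5 CPM. Its exons overlap those of Apex1 on the opposite strand over 19.5% of their length, so reads of the 2 genes may not be fully told apart. Its paralog Tmem55a had 36.4 ± 7.14 CPM in non-competent and 33.3 ± 5.31 CPM in competent oocytes (SD, n = 6).

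The PI4P 5-kinases did not meet the criteria. Pip5k1a (chr3:95058530-95106930) had 31.4, 29.9 and 34.9 CPM at PND 13, 37.0, 26.3 and 24.1 CPM in PND 16 small, 26.2, 25.8 and 26.7 CPM in PND 16 large and 20.3, 23.8 and 22.1 CPM at PND 40. Its means ran from 32.1 ± 2.58 CPM at PND 13 to 22.1 ± 1.72 CPM at PND 40, with overlap between competent and non-competent pools and a log2 fold change of -0.34 (SE 0.114). Pip5k1c (chr10:81292963-81319973), which makes PI(4,5)P2 at sites of adhesion and endocytosis, had the most even level of the 10 genes, from 47.5 to 57.5 CPM over the 12 pools, with a log2 fold change of 0.083 (SE 0.0666).

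**Figure D2:**
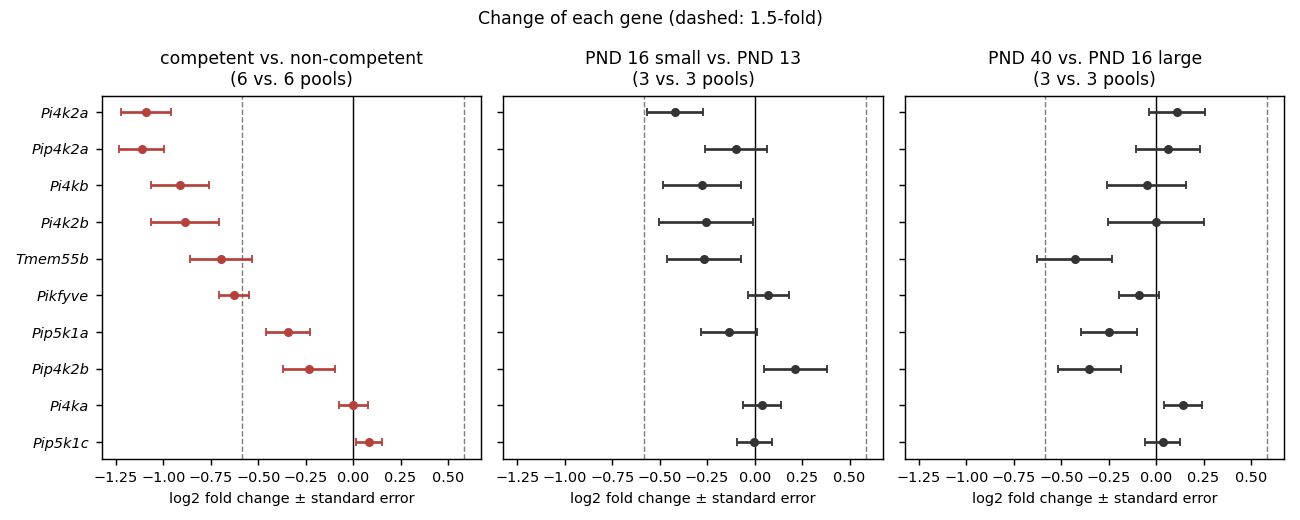
Log2 fold change (horizontal axis, ± standard error) of each gene in competent vs. non-competent oocytes (left, 6 vs. 6 pools) and within each competence class (middle and right, 3 vs. 3 pools), with dashed lines at 1.5-fold. On the left 6 genes lie beyond the left dashed line, from Pikfyve at -0.63 to Pip4k2a at -1.11, whereas in the other 2 panels no gene lies beyond a dashed line.

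Within the non-competent class, PND 16 small was compared with PND 13. The sources do not say which values selected the genes. The p-values here and in PND 40 vs. PND 16 large assume that the selection rested on differences between the classes. Such a selection favours genes with a small spread within each class. A lack of calls within the classes may therefore be partly built in. None of the 10 genes was called by edgeR's quasi-likelihood test, against 0.373% of the genes tested, and DESeq2 and limma also called none. At an unadjusted p under 0.05, 1 of the 10 was found by edgeR, Pi4k2a, as were 19.2% of all genes. Its mean was 91.2 ± 8.86 CPM at PND 13 and 68.1 ± 13.2 CPM in PND 16 small, with a log2 fold change of -0.42 (SE 0.147, edgeR adjusted p = 0.139). Without replicate 1 of PND 16 small, the pool with 83.2 CPM, Pi4k2a was called (log2 fold change -0.59, SE 0.138, edgeR adjusted p = 0.0172). It was called in 1 of the 12 fits that left out a pool. Over all genes these fits called 4 to 817 genes, and the fit of all pools called 52. The other adjusted p-values ran from 0.492 for Tmem55b to 0.995 for Pip5k1c. The pools did not overlap for Pi4k2b, lower in PND 16 small, and for Pip4k2b, higher in PND 16 small, which is 2 of 10 genes where 18.1% of all genes did not overlap.

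Within the competent class, no gene was called in PND 40 vs. PND 16 large by edgeR, DESeq2 or limma, where edgeR called 3.66% of the genes tested. The lowest adjusted p was that of Tmem55b, which had 12.8 ± 2.88 CPM at PND 40 and 17.2 ± 1.16 CPM in PND 16 large (log2 fold change -0.43, SE 0.197, adjusted p = 0.216), the only one of the 10 with an unadjusted p under 0.05, as had 22.4% of all genes. DESeq2 and limma each had 2 genes at that level, where DESeq2 had 3377 and limma 3170 of the 13943 genes tested. Pip4k2b followed with 18.8 ± 3.30 against 24.0 ± 5.05 CPM (log2 fold change -0.35, SE 0.165, adjusted p = 0.228). The pools did not overlap for Tmem55b and Pip5k1a, both lower at PND 40, where 39.3% of all genes did not overlap. For Pi4k2a, Pi4kb, Pi4k2b, Pip4k2a and Pikfyve the log2 fold changes were between -0.089 and 0.11, with standard errors of 0.107 to 0.252. Differences of the size seen between competence classes were not seen between these 2 cohorts, which a selection on the class difference would itself favour.

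The comparison of the PND 16 cohorts holds age constant. PND 16 large was below PND 16 small in every pool for Pi4k2a, Pi4kb, Pi4k2b, Pip4k2a, Pikfyve and Tmem55b, as was so for 15.2% of all genes. By the study's criteria Pi4k2b and Tmem55b were not called here, and Pi4k2a, Pi4kb, Pip4k2a and Pikfyve were, among 863 of the 13943 genes tested. Leaving out 1 pool kept the call of Pi4kb in 6 of 12 fits and that of Pikfyve in 9. The log2 fold changes were -1.09 for Pip4k2a (SE 0.168), -0.92 for Pi4k2a (SE 0.149), -0.75 for Pi4k2b (SE 0.252), -0.74 for Pi4kb (SE 0.209) and -0.62 for Pikfyve (SE 0.107). Tmem55b had a smaller difference at this age, -0.36 (SE 0.196), and its largest difference was between PND 40 and PND 13, -1.05 (SE 0.197). For Pi4k2a, PND 16 large lay 2.53-fold below PND 13 (log2 fold change -1.34, SE 0.150) and PND 40 lay 2.35-fold below it (-1.23, SE 0.150). These comparisons share pools with the competence contrast and with each other, and are descriptions.

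Cumulus cells had been removed from the oocytes by pipetting, but RNA of granulosa and cumulus markers was present, and in some non-competent pools at a higher level. All 12 markers were detected in every pool, and their summed level was 456, 130 and 528 CPM in the pools of PND 13 and 186, 564 and 251 CPM in PND 16 small. It was 178 to 191 CPM in PND 16 large and 155 to 172 CPM at PND 40. Of these sums, Nr5a2 alone gave 87.8 to 146 CPM in each pool, whereas Amh, a defining granulosa gene, ranged from 0.389 to 33.5 CPM. The median log2 fold change of the 12 markers in competent oocytes was -1.62, with 2 of 12 called lower, where 11.2% of all genes were called lower. Replicate 2 of PND 13 and replicate 1 of PND 16 small had sums like those of competent pools, and in them Pi4k2a stood at 93.0 and 83.2 CPM, Pip4k2a at 24.8 and 24.7 CPM and Pikfyve at 238 and 288 CPM. That these values exceed the competent pools follows from the lack of overlap already described. Without the 3 pools with the highest sums, the same 6 genes were called lower. In that fit 10.8% of the 14859 genes tested were called in either direction. The log2 fold changes were then -1.21 for Pip4k2a (SE 0.146), -1.08 for Pi4k2a (SE 0.138) and -0.68 for Pikfyve (SE 0.0881). The genes were chosen with this difference known, and for these 6 the classes did not overlap, so leaving out pools is a description. The part of granulosa and cumulus cells in the differences was not tested. Theca and stroma markers summed to 6.96 to 41.1 CPM over the 12 pools and overlapped between the classes.

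**Figure D3:**
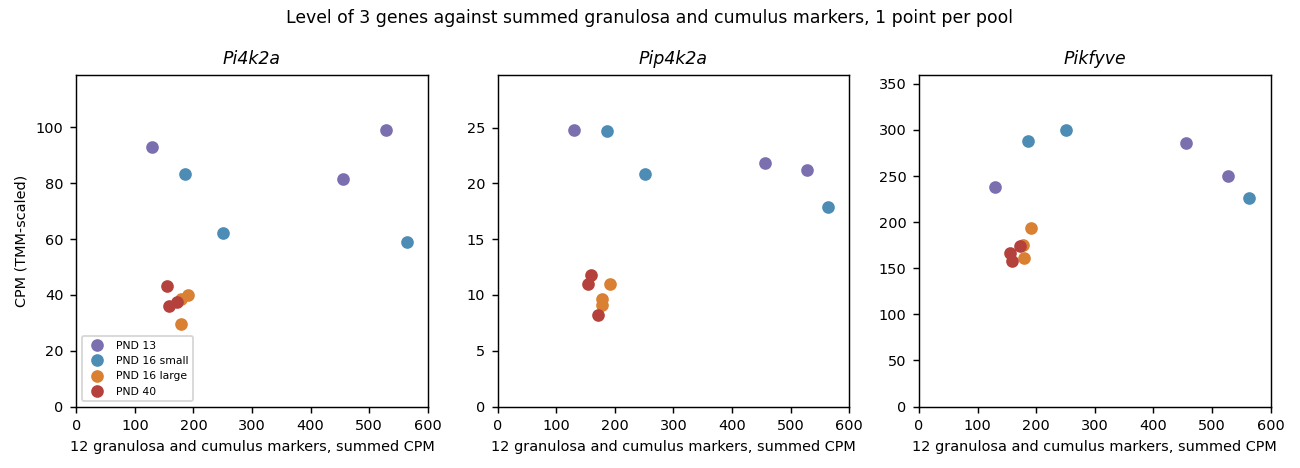
CPM of Pi4k2a, Pip4k2a and Pikfyve (vertical axes, from 0) against the summed CPM of 12 granulosa and cumulus markers (horizontal axis), 1 point per pool, coloured by cohort. The competent pools gather at 155 to 191 CPM of markers, and the non-competent pools spread from 130 to 564 CPM of markers.

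Levels were compared between genes only after division by the length of the union of annotated exons. In CPM per kb, Pi4k2a, Pi4ka and Pikfyve were the highest of the 10 at PND 13, at 13.6 ± 1.32, 13.5 ± 0.929 and 13.4 ± 1.27, and their pools overlapped. In PND 16 small the order was Pikfyve (14.1 ± 2.06), Pi4ka (13.9 ± 2.17) and Pi4k2a (10.2 ± 1.97), again overlapping from each gene to the next. In competent oocytes Pi4ka stood alone at the top, at 13.1 ± 0.496 in PND 16 large and 14.4 ± 0.778 at PND 40, above Pip5k1c (9.38 ± 0.707 and 9.61 ± 0.505) and Pikfyve (9.20 ± 0.845 and 8.65 ± 0.433), whose pools overlapped each other. Pi4k2a lay below Pip5k1a in PND 16 large at 5.38 ± 0.861 and above it at PND 40 at 5.81 ± 0.557, overlapping with it in both. Pi4k2b was the lowest in every cohort, from 1.30 ± 0.126 at PND 13 to 0.645 ± 0.0428 at PND 40, and its pools did not overlap those of the gene above it. With the length of the longest transcript instead, Pi4ka, Pikfyve and Pi4k2a were again the top 3 at PND 13, at 23.0, 23.0 and 21.4 CPM per kb. Pi4k2a lay above Pip5k1a in PND 16 large (8.44 and 7.15), the reverse of the order above, and Pi4ka again led at PND 40, at 24.5, with Pikfyve at 14.8 and Pip5k1c at 12.7.

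**Figure D4:**
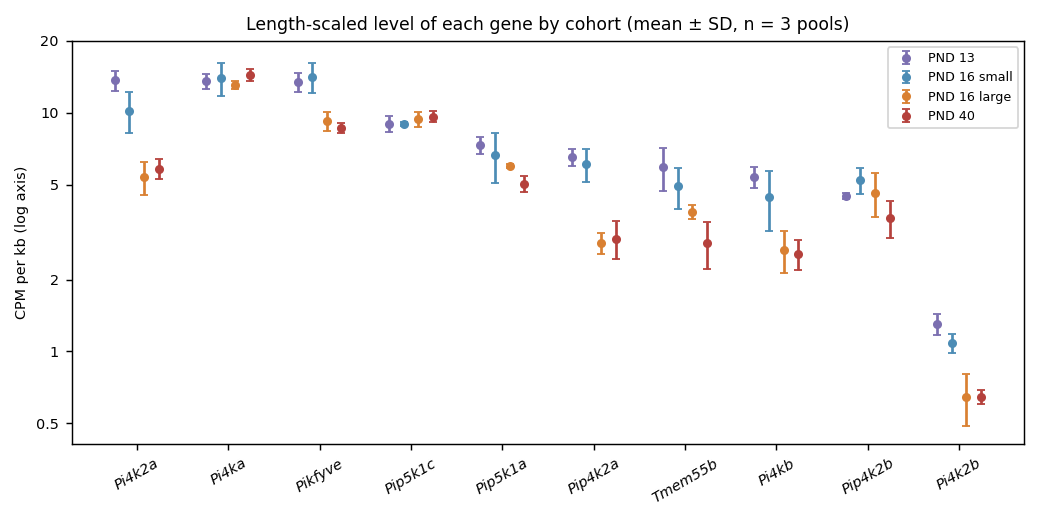
CPM per kb of exon (vertical log axis) of the 10 genes in each cohort, as mean ± SD (n = 3 pools), ordered by level at PND 13. Pi4k2a, Pi4ka and Pikfyve start together near 13.5, and in the competent cohorts Pi4ka stays there while Pi4k2a lies at 5.38 and 5.81 and Pikfyve at 9.20 and 8.65.

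Within an enzyme class, each paralog's share of the length-scaled level was computed. Of the type III PI 4-kinase level, Pi4ka made up 71.6% ± 0.687 at PND 13, 76.0% ± 3.12 in PND 16 small, 83.1% ± 3.33 in PND 16 large and 85.0% ± 1.29 at PND 40 (SD, n = 3), with Pi4kb as the remainder. The type II pair kept its proportions while both members were lower in competent oocytes: Pi4k2a made up 91.3% ± 0.554 at PND 13 and 89.9% ± 1.41 at PND 40. Of the PIP4K genes, Pip4k2a made up 27.5% ± 1.52 at PND 13 and 26.4% ± 3.93 in PND 16 small, but 13.5% ± 0.892 in PND 16 large and 18.0% ± 2.04 at PND 40, with Pip4k2c the largest share in every cohort, from 51.0% to 64.6%. Of the PIP5K genes, Pip5k1c made up 52.8% ± 3.31 at PND 13 and 60.4% ± 4.64 at PND 40, and Pip5k1a 43.0% ± 2.82 and 31.6% ± 2.62. In exact two-sided permutation tests within the competence classes, in which 3 vs. 3 pools allow no p under 0.1, that smallest value was reached between PND 13 and PND 16 small for Pi4ka with Pi4kb, Pip5k1b, Pip4k2b and Pip4k2c, and between PND 16 large and PND 40 for Pip4k2a. The shares depend on the lengths used. With the longest transcript, Pi4ka made up 80.3% at PND 13 and 90.1% at PND 40, and the order of the cohorts was the same.

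**Figure D5:**
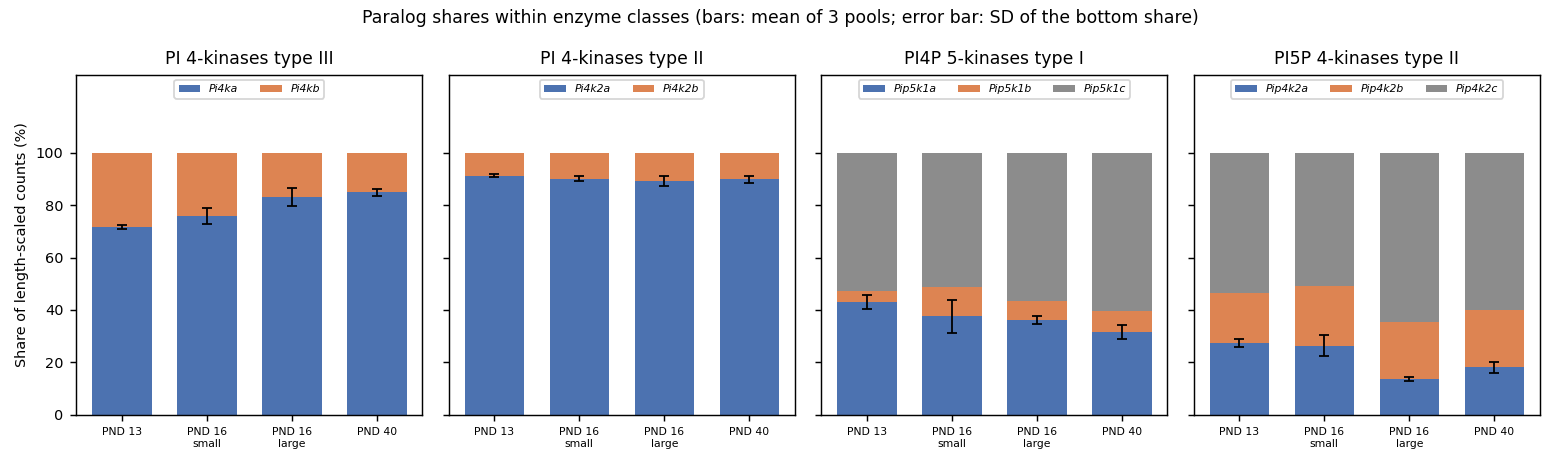
Share of each paralog in the length-scaled level of its enzyme class (vertical axis, %), by cohort, as stacked bars of the mean of 3 pools. The error bar is the SD of the bottom share in each bar. Pi4ka runs from 71.6% at PND 13 to 85.0% at PND 40, Pi4k2a stays near 90%, and Pip4k2a is 27.5% at PND 13 and 13.5% in PND 16 large.

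The 10 genes act within a larger network, for which 8 lists with 115 other genes were compiled by function, and 107 of these genes passed the filter. In competent vs. non-competent oocytes 12 were lower and 1 was higher by edgeR, 12.1% of the 107, beside 15.0% of all genes, and their median log2 fold change was -0.038. Without the 3 pools rich in granulosa markers 7 were called, some of them not called with all pools. In that fit 10.8% of all genes were called. The calls that were kept both without any single pool and without those 3 pools were those of Mtmr1, a myotubularin-family 3-phosphatase (1.94 ± 0.456 against 5.41 ± 1.14 CPM, log2 fold change -1.47, SE 0.226, adjusted p = 0.000325), Dgkg, a diacylglycerol kinase (log2 fold change -1.30, SE 0.255, adjusted p = 0.00168), Wdr45b, a phosphoinositide-binding protein of autophagy (-1.15, SE 0.229, adjusted p = 0.00189), and Pik3r2, a regulatory subunit of class I PI 3-kinase (-0.85, SE 0.191, adjusted p = 0.00416).

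Partners of the lipid kinases were examined by list, and no list was tested against the 10 genes or against all genes. Of all genes tested, 11.2% were called lower in competent oocytes and 15.0% in either direction. The counts per list here and in the next paragraph stand beside these shares. Of 12 scaffolds and regulators, 1 was lower, Fig4, a phosphatase that joins Vac14 in the PIKfyve complex, at 8.17 ± 1.33 CPM in competent and 13.3 ± 3.62 CPM in non-competent oocytes (SD, n = 6; log2 fold change -0.70, SE 0.180, adjusted p = 0.00908). Without the 3 pools rich in granulosa markers its log2 fold change was -0.47 (SE 0.191) and it was not called. Of 24 phosphoinositide phosphatases, 4 were lower, which were Mtmr1, Inpp4b (-0.82, SE 0.202, adjusted p = 0.00718), Fig4 and Mtm1, the last named after its values were seen, and none was higher. Of these, Inpp4b and Mtm1 were also not called without the 3 pools, at -0.59 (SE 0.202) and -0.42 (SE 0.242), and Mtm1 also not without any 1 of PND 13 replicates 1 and 3 and the 3 PND 40 pools. Of 7 effectors of PI(3,5)P2, 2 were lower, Wdr45b and the endolysosomal cation channel gene Tpcn1 (-1.17, SE 0.263, adjusted p = 0.0041), the latter not called without the 3 pools (-0.89, SE 0.314). None of 19 PI4P-binding transfer and coat protein genes was called, with a median log2 fold change of 0.083.

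Of 11 PI kinases outside the 10 genes, 1 was called, Pik3cg, the catalytic subunit gene of PI3Kγ, at 0.457 ± 0.177 CPM in competent and 2.85 ± 2.18 CPM in non-competent oocytes (adjusted p = 0.0248), and it was not called without the 3 pools or without PND 13 replicate 3, PND 16 large replicate 1 or PND 40 replicate 2. Of 10 phospholipase C genes, 2 were lower. Plch1 had 7.13 ± 1.63 against 12.4 ± 5.09 CPM (-0.80, SE 0.245, adjusted p = 0.0232), and was not called without PND 40 replicate 2, without PND 16 small replicate 3 or without the 3 pools, where its log2 fold change was -0.90 (SE 0.309). Plcd1 had at most 5 counts in any competent pool and was called in 2 of the 12 fits that left out a pool. Of 18 genes of PI synthesis and transfer, Dgkg and Dgkq were lower, the latter at under 2 CPM in both classes on average, and Dgki was higher (2.15 ± 0.628 against 1.17 ± 0.246 CPM, log2 fold change 0.89, SE 0.270, adjusted p = 0.0223). Without the 3 pools Dgkq and Dgki were not called, at log2 fold changes of -1.35 (SE 0.657; -1.74 with all pools) and 0.745 (SE 0.338). Dgkq was also not called without PND 13 replicate 3 or PND 40 replicate 2, and Dgki not without PND 40 replicate 1 or 3.

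Between PND 16 small and PND 13 none of the 107 network genes was called by edgeR, and DESeq2 called 3. Between PND 40 and PND 16 large 5 were called, 4.67% of the 107 beside 3.66% of all genes. Inpp5d, the gene of the 5-phosphatase SHIP1 that removes PIP3, was at 24.1 ± 1.07 CPM at PND 40 and 42.8 ± 1.90 CPM in PND 16 large (SD, n = 3; log2 fold change -0.83, SE 0.134, adjusted p = 0.00383), and was called in all 12 fits that left out a pool. Higher at PND 40 were Osbpl5, an ER-anchored lipid transfer protein gene (12.6 ± 1.10 against 4.07 ± 1.09 CPM, log2 fold change 1.62, SE 0.318, adjusted p = 0.00975), and Ncs1, a calcium sensor that stimulates PI 4-kinase β (10.9 ± 1.67 against 3.62 ± 0.198 CPM, 1.59, SE 0.336, adjusted p = 0.0142). Lower were Wdr45b (-0.93, SE 0.218, adjusted p = 0.0236) and the mitochondrial CDP-diacylglycerol synthase gene Tamm41 (-0.60, SE 0.152, adjusted p = 0.032). Osbpl5 was not called without PND 16 large replicate 3, Ncs1 not without any 1 of the PND 16 large pools or PND 40 replicate 3, Wdr45b not without any 1 of the PND 16 large pools or PND 40 replicates 1 and 2, and Tamm41 not without any 1 of the 6 pools compared.

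For each of the 10 genes, the gene with the most similar profile over the 12 pools was found among 7849 genes with at least 10 CPM, by the root mean square difference of centred log2 CPM. The differences were 0.0437 for Pip5k1c and Dcakd, 0.0763 for Pi4ka and Sptan1, 0.0846 for Pip5k1a and Poldip2, 0.0902 for Pip4k2a and Nipa2, and 0.0953 for Pikfyve and Smc2. They were 0.108 for Pi4k2a and Cstf2, 0.113 for Pi4kb and Tmem167b, 0.134 for Pi4k2b and Nmt2, 0.135 for Pip4k2b and Slc44a2, and 0.164 for Tmem55b and Map3k11. Against all candidates the median difference was between 0.217 for Pip5k1c and 0.644 for Pi4k2a. The value is on the log2 scale and is smaller for genes that vary little, such as Pip5k1c.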

How the data were processed

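RNA-Seq was analysed in 12 oocyte pools, 3 in each cohort, with groups and replicate numbers taken from the sample labels. Per the study's methods, rRNA-depleted directional libraries were read on a HiSeq instrument and analysed with Rosalind. The submitters' processing notes name STAR, HTSeq, DESeq2, HOMER and the build mm10, without versions or roles. The authors deposited raw counts per gene, and log2 values that equal the log2 of the count divided by a DESeq2 size factor, plus 1 (within 0.0162%).

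Genes passing filterByExpr at a minimum count of 10 (13943) were scaled by TMM (factors 0.954 to 1.07) and tested with robust quasi-likelihood in R 4.3.3 with edgeR 4.0.16, with Benjamini-Hochberg adjustment over all genes tested. One model of the 4 cohorts served the pairwise comparisons, and a model of 6 vs. 6 pools served competence. Each standard error was taken as the size of the log2 fold change over the root of its F statistic. The fit was also run on simulated counts with 200 genes changed, fewer than the 2087 called for competence, and the results do not rest on that run. DESeq2 1.42.0 and limma 3.58.1, other scalings and filters, no fold criterion, only the cohorts compared, a replicate block and leaving out each pool were alternatives. Leaving out 3 pools rich in granulosa markers, and for the network lists also limma, no fold criterion and only the cohorts compared, were chosen after seeing the data.

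Replicates are pools described as independent, and no pair of pools agreed within sampling noise. The genes, lists and tests were chosen with earlier results of these data known. Named are the 10 genes, the 2 called genes of each list with the largest change in each direction, all listed genes called within a competence class, and the gene most like each of the 10. Exon lengths and gene positions came from GENCODE M21 (GRCm38) for all 165 listed genes, and promoters from RefSeq (GRCm38.p6).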

Additional observations from a re-analysis of the deposited data

Results flagged for a closer look

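Pip4k2b in replicate 2 of PND 16 small stood at 30.9 CPM, above the other 5 non-competent pools, which reached at most 25.4 CPM. The gap to the nearest pool was 0.669 of the range of the 6 pools, over the 95% critical value of Dixon's test. Of the 20 groups examined (10 genes in competent and in non-competent pools), this was the only one past its critical value, and chance flags about 1 in 20. The same pool had the highest sum of granulosa and cumulus markers, 564 CPM, and the part of these cells in the value was not tested. Pip4k2b was called in no comparison of the report.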

How the results depend on the processing

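The 6 genes called lower in competent oocytes were called under all alternatives run and without each pool in turn. The genes were chosen with this difference known, so the repeated calls are a description and carry no test. Without the fold criterion 7 were called. In both comparisons within a class 0 of the 10 genes were called under 9 alternatives, and 0 to 1 without 1 pool (PND 16 small vs. PND 13) or 0 (PND 40 vs. PND 16 large). A selection on the class difference favours such low counts. Pip5k1a in PND 16 small vs. PND 13 had a log2 fold change of -0.14, and of 0.031 (SE 0.228, adjusted p = 0.972) without the 3 pools rich in granulosa markers. The cause was not tested.

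Of the network genes, 0 were called in PND 16 small vs. PND 13, against 3 by DESeq2, 2 without the fold criterion and 0 to 7 without 1 pool (7 without PND 16 small replicate 1). In PND 40 vs. PND 16 large 5 were called, against 14 without the fold criterion, 9 with only the cohorts compared and 1 to 6 without 1 pool. For competence 13 were called, against 29 without the fold criterion, 7 without the 3 pools (not all among the 13) and 8 to 15 without 1 pool (8 without PND 40 replicate 2). Over all genes, the calls in PND 16 small vs. PND 13 were 52, against 361 by DESeq2, 25 with total counts, 129 without the fold criterion, 2 with only the cohorts compared, 17 without the 3 pools and 4 to 817 without 1 pool. In PND 40 vs. PND 16 large they were 510, against 782 by DESeq2, 953 without the fold criterion, 1084 with only the cohorts compared and 246 to 662 without 1 pool. For competence they were 2087, and 4283 without the fold criterion.

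No pair of same-numbered pools had a correlation over 0.1 in any comparison, and in PND 16 small vs. PND 13 the correlations ran from -0.442 to 0.0365. With 3 pools a cohort, these values cannot exclude that the numbers stand for something the pools share. With the replicate block, 0, 0 and 6 of the 10 genes were called in PND 16 small vs. PND 13, PND 40 vs. PND 16 large and competence, the same counts as without it, and 10, 392 and 1848 of all genes. Scaling by total counts moved the median of all genes in PND 16 small vs. PND 13 from -0.026 to -0.12 and raised the share of lower calls from 51.9% to 76.0%. Of the 40 paralog shares, 29 moved beyond the SD between pools with longest transcript lengths and 31 without length. Leaving out 1 of 3 pools cannot move a mean by that SD, so this measure says nothing about single pools. Differences under 1.5-fold cannot be called by the criteria, and with 3 pools a cohort larger ones could also go uncalled. Pi4k2b was 1.68-fold lower in PND 16 large than in PND 16 small (log2 fold change -0.75, SE 0.252) and was not called.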
